A study of Caenorhabditis elegans with 2 samples.

Results

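Aminoacyl-tRNA synthetase genes were examined in regions recovered by chromatin immunoprecipitation and sequencing (ChIP-seq) of tagged SPR-1 from whole Caenorhabditis elegans larvae. The genes were taken as every protein-coding gene whose symbol is a single letter followed by ars-1 or ars-2 in the Ensembl annotation of WBcel235, where the letter is the code of the amino acid. The rule gave 31 of 19973 nuclear protein-coding genes, 20 with the suffix -1 and 11 with the suffix -2, and it used no measured value. The worms were of strain OP521, which carries unc-119(tm4063) III and the integrated transgene wgIs521, and which stably expresses SPR-1 with a C-terminal GFP-FLAG tag. Hermaphrodites were taken as L4 larvae 50 hours after synchronization, which was done by starving newly hatched L1 larvae after bleaching. Chromatin was sheared by sonication and precipitated with an antibody against GFP. The study had 1 group of 2 samples, labelled as biological replicates 1 and 2, and no untagged or untreated group. The labels do not say what drives the transgene, nor whether the worms keep their own spr-1. Since whole animals were used, each value is an average over all cell types, and binding in few cells and weak binding in many cells cannot be told apart.

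Aminoacyl-tRNA synthetases join each amino acid to its tRNA, so that the ribosome reads every codon with the right residue. Animal cells translate in the cytosol and also inside mitochondria, which have tRNAs of their own, and all the synthetases of both compartments are encoded in the nucleus. Some enzymes serve a single compartment, and others are made in forms for both. SPR-1 is the worm counterpart of CoREST, a corepressor that works together with the histone demethylase LSD1 and with histone deacetylases.

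The deposited lists give regions, each with a summit and a signal value on a scale that the sources used here do not give. The pooled list of both replicates held 30000 lines, the lists of replicate 1 and replicate 2 held 26070 and 21966, and the thresholded list held 1686, all of them the strongest 1686 lines of the pooled one. Read depth is unknown. Any listed region is called a candidate below, and rank 1 is the highest signal in a list. By its name the pooled list holds peaks and background, as input for IDR, so a candidate need not be a site of binding. The thresholded list is named for the same step, IDR, which keeps regions that are reproducible between replicates. A gene is called bound when its annotated start had a thresholded summit no more than 1000 bp away. For a replicate alone, bound means a summit among that replicate's own 1686 strongest lines. Without an untagged control strain, bound is a name for this call and does not show that SPR-1 was specifically at the gene. Positions of summits are given in bp from the gene start, negative upstream, and coordinates are 1-based on ce11 (WBcel235).

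Of the synthetase genes, 2 were bound, ears-2 and aars-1. That is 6.45% of the 31 genes, beside 5.83% of all nuclear protein-coding genes, so the share lay near the background. A candidate of any strength was more widespread: 20 synthetase genes (64.5%) had one within 1000 bp, beside 45.8% of all genes. Among genes with a candidate, 10% of the synthetase genes were bound (2 of 20), beside 12.7% of all such genes. In replicate 1 alone, 24 synthetase genes (77.4%) had a candidate, beside 43.5% of all genes, and 2 (6.45%) were bound, beside 5.65%. In replicate 2 alone, 18 synthetase genes (58.1%) had a candidate, beside 38.8% of all genes, and 3 (9.68%) were bound, beside 5.96%. These shares are descriptions and were not tested. Most candidates at synthetase genes were of middling strength. Ranked among all protein-coding genes with a candidate, where 100 would be the strongest, their strongest summits had a median percentile of 54.0 in the pooled list (lowest 3.71, highest 98.5). The same median was 33.0 in replicate 1 and 51.8 in replicate 2.

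**Figure D1:**
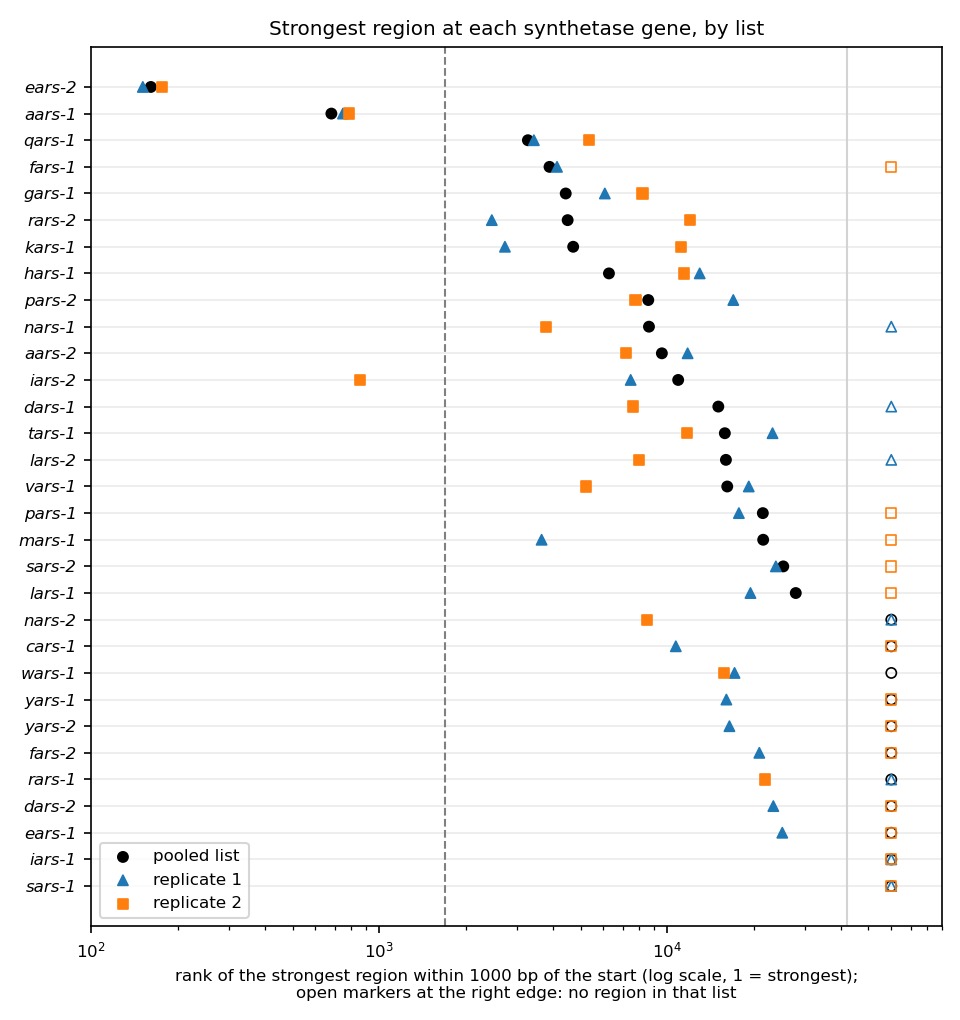
Rank of the strongest summit within 1000 bp of each synthetase gene start (log axis, rank 1 is the highest signal) in the pooled list and in each replicate list, with the dashed line at rank 1686, the length of the thresholded list. Symbols of ears-2 and aars-1 lie on the strong side of the line in all 3 lists, and that of iars-2 does so in replicate 2 only.

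The gene ears-2 had the strongest region of the family. RefSeq names its product a nondiscriminating glutamyl-tRNA synthetase of mitochondria, an enzyme that charges both the glutamate and the glutamine tRNA of the organelle. The gene lies on the minus strand of chromosome IV at 388686 to 390468 (WBGene00001338). Its thresholded region ran from 390365 to 390605, with the summit at 390502 in intergenic sequence, at -34 bp. The signal was 252 in the pooled list, at rank 161. It was 140 in replicate 1, at rank 151 and -22 bp, and 113 in replicate 2, at rank 176 and -51 bp. Both replicates therefore placed it among their strongest lines and within the same short stretch. For ears-2, as for aars-1 below, such agreement is partly built in, since IDR selects on agreement between replicates. The start of uncp-18 (IV, 390560 to 393158), which is transcribed the other way, lay 92 bp from that of ears-2 and 58 bp from the summit, so the region cannot be assigned to either gene of the pair. The glutamate counterpart with the suffix -1, ears-1, had no candidate in the pooled list or in replicate 2. In replicate 1 it had 1 weak candidate, with a signal of 13.1 at rank 25097.

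The gene aars-1 was the other bound member. It encodes an alanine--tRNA ligase on the minus strand of chromosome II at 11460205 to 11464497 (WBGene00000196). Its thresholded region ran from 11464399 to 11464858, with an intergenic summit at 11464629, at -132 bp. The signal was 127 in the pooled list, at rank 682. It was 69.2 in replicate 1, at rank 748 and -131 bp, and 55.5 in replicate 2, at rank 787 and -132 bp. The replicates thus gave the same summit to within a base and similar ranks. This region too lies between diverging genes: rga-1 (II, 11464894 to 11468653) starts 397 bp from aars-1 and 265 bp from the summit. The other alanine gene, aars-2, had 3 candidates near its start, none thresholded. The strongest had a pooled signal of 33.9 at rank 9582 and -247 bp. Replicate 2 gave 20.1 at rank 7180 and -240 bp. In replicate 1 the strongest summit lay on the other side of the start, at 167 bp, with 19.6 at rank 11773.

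The sequences under the summits of both bound members are shown with that of qars-1, the unbound member of highest signal, so that the summit stretches can be compared. They were read from the RefSeq genome WBcel235 on the minus strand, in the direction of the synthetase gene, and kept to bases between genes. Capitals mark the 41 bases centred on the pooled summit. The stretches are ears-2 at chrIV:390469-390559, which is the whole gap to uncp-18, aars-1 at chrII:11464498-11464778 and qars-1 at chrIV:15013613-15013912.
ears-2: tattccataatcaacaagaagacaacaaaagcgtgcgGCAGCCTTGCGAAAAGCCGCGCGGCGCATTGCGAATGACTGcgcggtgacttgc
aars-1: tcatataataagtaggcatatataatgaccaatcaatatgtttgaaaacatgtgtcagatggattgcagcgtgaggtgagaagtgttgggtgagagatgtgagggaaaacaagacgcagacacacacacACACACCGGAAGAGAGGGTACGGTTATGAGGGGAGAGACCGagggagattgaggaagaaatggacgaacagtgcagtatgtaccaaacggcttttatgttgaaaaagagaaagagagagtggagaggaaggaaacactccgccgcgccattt
qars-1: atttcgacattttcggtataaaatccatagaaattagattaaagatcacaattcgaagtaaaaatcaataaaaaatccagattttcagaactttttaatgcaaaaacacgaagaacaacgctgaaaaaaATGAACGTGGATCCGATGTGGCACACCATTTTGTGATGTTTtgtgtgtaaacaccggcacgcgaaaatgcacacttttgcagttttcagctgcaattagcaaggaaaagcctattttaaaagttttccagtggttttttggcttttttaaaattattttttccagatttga
The capitals were 63.4% G or C with 6 CpG dinucleotides in ears-2, 58.5% with 3 in aars-1 and 43.9% with 2 in qars-1. The median over thresholded nuclear summits was 51.2%, and over the other candidates 36.6%. In the 300 bp around the summit, G and C made up 40.0% at ears-2 and 46.0% at aars-1. At the 18 unbound members with a candidate they made up 28.0% to 40.3%, with a median of 33.3%. The medians of all thresholded nuclear summits (n = 1663) and of the other nuclear candidates (n = 28314) were 42.7% and 36.3%. The same 300 bp held 22 CpG at ears-2, 12 at aars-1 and a median of 10 (4 to 21) at the unbound members, beside a median of 14 at thresholded summits. Bound members, like thresholded regions as a whole, thus had more G and C around the summit than the median of their unbound counterparts. Whether base composition bears on the signal was not tested.

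**Figure D2:**
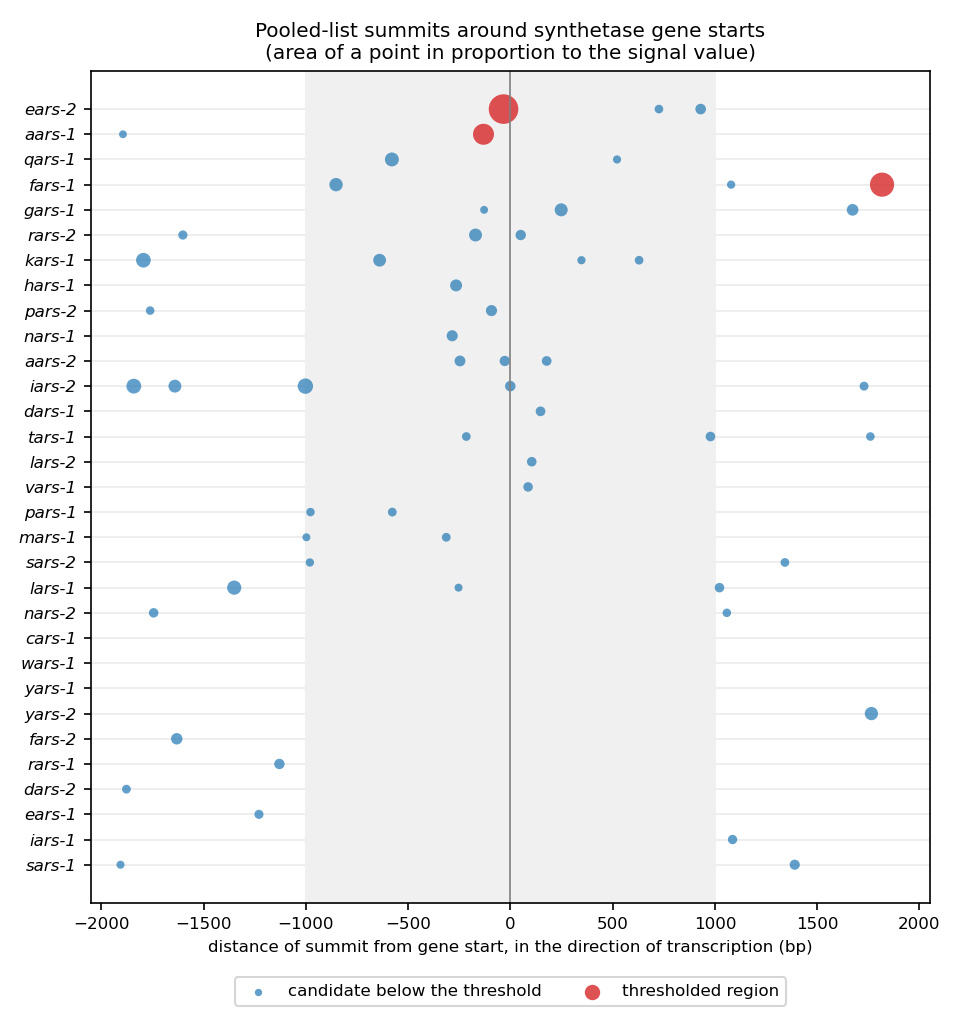
Every summit of the pooled list within 2000 bp of each synthetase gene start, by distance in the direction of transcription (bp), with the area of a point in proportion to its signal and the 1000 bp window shaded. Thresholded summits (red) lie just upstream of ears-2 and aars-1 and inside fars-1, and the other points are candidates below the threshold.

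The 18 unbound members with a candidate had pooled signals of 18.5 to 56.0, with a median of 32.9, all below the lowest thresholded signal of 79.7. The highest were at qars-1, fars-1, gars-1, rars-2 and kars-1. For qars-1, a glutamine--tRNA ligase gene, the signal was 56.0 in the pooled list at rank 3283 and -580 bp. It was 33.1 in replicate 1 at rank 3444, and 22.8 in replicate 2 at rank 5358. The summit lay 272 bp upstream of Y41E3.7, which is transcribed the other way and starts 852 bp from qars-1. For gars-1, the glycine--tRNA ligase gene, the strongest summit was downstream of the start at 248 bp. Its signal was 48.6 in the pooled list at rank 4442, 26.2 in replicate 1 at rank 6073 and 18.98 in replicate 2 at rank 8212. These middling regions stood lower in the list of replicate 2 than in that of replicate 1.

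The same order held for rars-2 and kars-1. The gene rars-2, for which RefSeq gives a putative mitochondrial arginine--tRNA ligase, had a pooled signal of 48.3 at rank 4511 and -171 bp. Its signal was 38.6 in replicate 1 at rank 2460 and 16.0 in replicate 2 at rank 12028. For kars-1, the lysine--tRNA ligase gene, the pooled signal was 47.3 at rank 4715 and -640 bp, with 36.8 in replicate 1 at rank 2732 and 16.6 in replicate 2 at rank 11144. The kars-1 summit lay 759 bp upstream of the start of kat-1, a thiolase gene transcribed the other way. Both genes were below the 1686 strongest lines in each replicate, and their places in the lists differed widely between replicates.

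The phenylalanine gene fars-1 had 2 separate signals. At its start the strongest candidate was at -853 bp, with a pooled signal of 51.4 at rank 3902. Replicate 1 gave 30.7 at rank 4143 and -700 bp. Replicate 2 had no candidate within 1000 bp, but had one just outside, at -1012 bp, with 20.8 at rank 6710. Its region overlapped that of the pooled list. The pooled summit lay 189 bp upstream of rbm-5, a gene for an RNA-binding protein. The second signal was inside the gene and stronger. A thresholded region at 6212837 to 6212957 of chromosome I had its summit at 6212868, in an intron at 1817 bp. Its signal was 168 in the pooled list at rank 384, 95.8 in replicate 1 at rank 380 and 71.5 in replicate 2 at rank 464. No other synthetase gene held a thresholded summit in its body. Within 200 bp of this summit lay T08B2.13, a small nucleolar RNA gene, T08B2.14, a non-coding RNA gene, and a pseudogene, and the start of mrpl-23, a mitochondrial ribosomal protein gene, was 983 bp away. The call of fars-1 thus rests on the window: it was not bound at 1000 bp and was bound at 2000 bp.

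**Figure D3:**
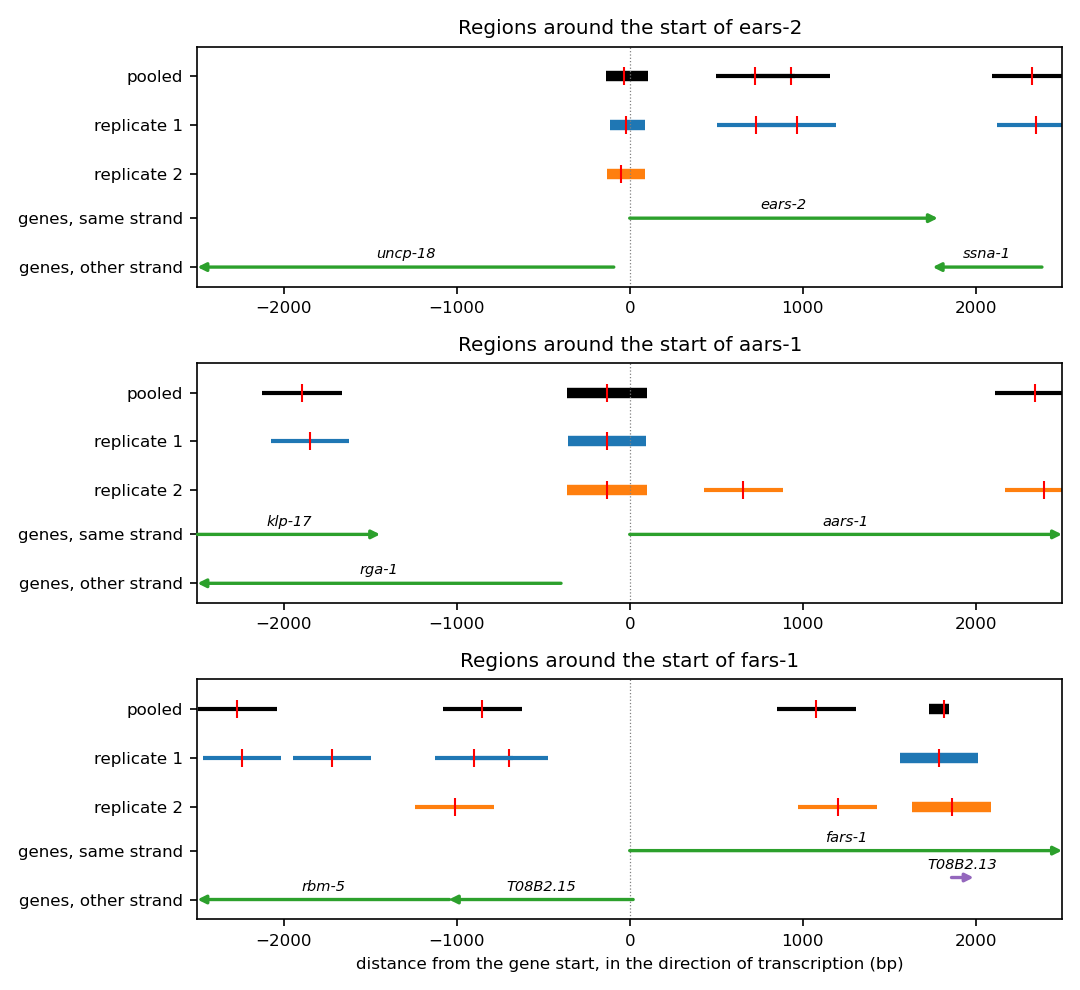
Regions of the pooled and replicate lists around the starts of ears-2, aars-1 and fars-1 by distance in the direction of transcription (bp), as bars with a red tick at each summit, thick where thresholded or among the 1686 strongest lines of that replicate. Arrows are genes (purple for T08B2.13), and the strong regions sit between diverging genes at ears-2 and aars-1 but inside the gene at fars-1.

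For iars-2, an isoleucine--tRNA ligase gene, the call differed between replicates. Its strongest candidate within 1000 bp was at -1 bp in the pooled list, with a signal of 31.9 at rank 10916, and at -107 bp in replicate 1, with 23.9 at rank 7467. In replicate 2 it was at -922 bp, with 53.2 at rank 860, so iars-2 was bound in that replicate alone. Replicate 1 also had a weaker summit at -990 bp, with 19.3 at rank 12199. The pooled list had a summit at -1003 bp, with 68.1 at rank 2258, just outside the window and below the threshold. In the pooled list, the closest summits inside the window's edge were at -998 bp for mars-1, -981 bp for sars-2, -978 bp for pars-1 and 978 bp for tars-1. Just outside it in the same list were those of lars-1 at 1022 bp, nars-2 at 1058 bp and fars-1 at 1079 bp.

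The other 12 unbound members with a pooled candidate were hars-1, pars-2, nars-1, aars-2, dars-1, tars-1, lars-2, vars-1, pars-1, mars-1, sars-2 and lars-1. Their pooled signals ran down to 18.5 at lars-1 from 41.3 at hars-1, and their ranks lay between 6276 and 27955. Several of these leaned on a single replicate. For mars-1, the methionine--tRNA ligase gene, the pooled signal was 22.2 at rank 21542, replicate 1 gave 32.3 at rank 3663, and replicate 2 had no candidate. For nars-1, the asparagine--tRNA ligase gene, the pooled signal was 35.5 at rank 8643, replicate 2 gave 26.6 at rank 3786, and replicate 1 had none. The genes dars-1 and lars-2, for aspartate and leucine, had a candidate in replicate 2 but not in replicate 1, while pars-1, sars-2 and lars-1 had one in replicate 1 but not in replicate 2.

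Candidates in both replicates were found at hars-1, pars-2, aars-2, tars-1 and vars-1 of this lower tier. For hars-1, the histidine--tRNA ligase gene, the signal was 41.3 in the pooled list at -266 bp, 18.8 in replicate 1 at -281 bp and 16.4 in replicate 2 at -330 bp. For pars-2, a proline--tRNA ligase gene, it was 35.6 at -93 bp in the pooled list, 16.5 at -87 bp in replicate 1 and 19.5 at -126 bp in replicate 2. In both genes the summits of the replicates fell close together, although their signals were low. For vars-1, the valine gene, the signal was 26.2 at 86 bp in the pooled list, inside its coding sequence, 23.2 at 84 bp in replicate 2 and 15.4 at -322 bp in replicate 1. At tars-1 the strongest summits of the replicates lay far apart, at -488 bp in replicate 1 and 991 bp in replicate 2.

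The remaining 11 members had no pooled candidate within 1000 bp: cars-1, dars-2, ears-1, fars-2, iars-1, nars-2, rars-1, sars-1, wars-1, yars-1 and yars-2. Of these, iars-1 and sars-1 had none in either replicate, and the other 9 had one in a replicate list, wars-1 in both. The signals lay between 11.7 at rars-1 in replicate 2 and 20.5 at cars-1 in replicate 1. A gene with no candidate is one without a listed region nearby. The lowest signal in the pooled list was 17.6, and how the lists were ended is not stated in the labels.

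By suffix, 13 of 20 -1 genes (65.0%) had a pooled candidate, and 7 of 11 -2 genes (63.6%) had one, beside 45.8% of all genes. In the pooled list 1 gene of each kind was bound, aars-1 among the -1 genes (5.00%) and ears-2 among the -2 genes (9.09%), beside 5.83% of all genes. The median percentile was 55.7 for the -1 genes and 52.3 for the -2 genes. In replicate 1, 15 of the -1 genes and 9 of the -2 genes had a candidate (43.5% of all genes), and 1 of each was bound (5.65% of all genes). In replicate 2, 11 of the -1 genes and 7 of the -2 genes had one (38.8% of all genes), and 1 of the -1 genes and 2 of the -2 genes were bound (5.96% of all genes). The pooled candidate shares of the suffixes were nearly the same, and the bound shares rest on 1 gene each. Of the 11 amino acids with both a -1 and a -2 gene, the -1 gene had the better pooled rank, or the only candidate, in 4. The -2 gene did in 6, and tyrosine had no candidate at either gene. Replicate 1 gave 4 and 6 with 1 undecided, and replicate 2 gave 3 and 5 with 3 undecided, so neither suffix led in all amino acids. Which gene led was the same in all 3 lists for alanine, glutamate, isoleucine, proline and arginine.

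The suffix does not always name the compartment. RefSeq calls aars-1 the mitochondrial and aars-2 the cytoplasmic alanine enzyme, against a reading of -1 as cytosolic. Grouped by the compartment stated in the RefSeq product name, a grouping chosen after the values were seen, 4 genes were mitochondrial (aars-1, ears-2, pars-2 and rars-2). All 4 had a candidate in the pooled list and in each replicate, and 2 were bound, beside 45.8% of all genes with a pooled candidate and 5.83% bound. Their pooled percentiles were 98.5 for ears-2, 94.3 for aars-1, 72.1 for rars-2 and 55.8 for pars-2. Of 10 genes with a cytoplasmic product, 5 had a pooled candidate and none was bound in any list, with a median percentile of 35.0 (17.9 to 55.7). For 17 genes RefSeq states no compartment. Of them, 11 had a pooled candidate and none was bound there. They include the -2 genes dars-2, fars-2, iars-2, lars-2, nars-2, sars-2 and yars-2, so most -2 genes are outside the mitochondrial group. Among these -2 genes only iars-2, lars-2 and sars-2 had a pooled candidate. Both bound synthetase genes were therefore among the 4 named as mitochondrial, but most members are not classified and the counts are small. With no test, this is only a description.

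Replicates were then compared within the family. A candidate was present in both replicates at 13 members (41.9%), beside 28.7% of all genes, and in neither at 2 (6.45%), beside 46.4%. It was in replicate 1 alone at 11 of the 31 members, beside 2952 of all 19973 genes. In replicate 2 alone it was at 5 members, beside 2024 of all genes. In the 13 members, the strongest summits of the replicates lay within 100 bp of each other in 7. The share over all genes is not given here, so this count cannot be called high or low. Across these 13 genes, which share both libraries, the Spearman correlation of their percentiles in the replicates was 0.42. Without the 2 bound genes it was 0.036 across the remaining 11, so the value of 0.42 rests largely on ears-2 and aars-1. Across the 5733 genes with a candidate in both replicates it was 0.65.

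Where a synthetase gene had a pooled candidate, its strongest summit was upstream of the start in 15 of 20 genes (75.0%), beside 60.5% of all genes with a candidate. It lay within 500 bp in 14 (70.0%), beside 62.2%, and the median distance was 251 bp, beside 366 bp. The summits fell in intergenic sequence at 11 genes, in introns at 4, in coding exons at 3 and in untranslated exons at 2. Some of these features belong to a neighbouring gene. They are untranslated exons of T08B2.15 at fars-1 and of C29H12.2 at rars-2, an intron of C25A1.20 at iars-2 and a coding exon of W03B1.9 at sars-2. Starts of diverging gene pairs are a shared property of both bound members. A gene of the opposite strand started within 1000 bp upstream of 11 synthetase genes, and 2 of those were bound (18.2%), while none of the other 20 was bound in the pooled list. Among all genes, 12.9% of 3539 with such a neighbour and 4.30% of 16434 without one were bound. The synthetase genes with a diverging neighbour that were not bound included dars-1 beside ctr-9 and nars-1 beside nduf-6, a gene of mitochondrial complex I. The nearest thresholded summit was a median of 17.4 kb from a synthetase start, beside 27.0 kb for all genes. The synthetase gene closest to a tRNA gene was dars-2, at 46.5 kb, and the median distance was 189 kb, beside 111 kb for all genes.

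The presence of 4 sequence words was checked on both strands in the 250 bp before to 50 bp after each start: the E-box CACGTG, the amino acid response element core TGATGNAA, the GATA site TGATAA and the CRE TGACGTCA. The E-box was in 1 of 31 synthetase promoters (hars-1), beside 5.82% of all promoters. The amino acid response element core was in 2 (iars-1 and lars-1), beside 7.45%. The GATA site was in 7, beside 30.2%, and the CRE in none, beside 1.51%. Around the 20 pooled summits, in 300 bp, the same words were in 2, 2, 6 and 0 windows. The first 3 were in 9.50%, 7.10% and 19.7% of windows at thresholded summits, and in 6.45%, 7.31% and 25.8% at the other candidates. None of the words was in the printed stretches of ears-2, aars-1 or qars-1.

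Of 26 other genes of tRNA charging and use, 24 matched the annotation. A pooled candidate was present at 19 (79.2%), beside 45.8% of all genes, and 5 (20.8%) were bound, beside 5.83% of all genes. Among these, eef-1A.1 and eef-1A.2 encode elongation factor 1 alpha, which brings charged tRNA to the ribosome, and eef-1B.1 and eef-1G encode subunits of its exchange factor. Their pooled signals were 191, 132, 152 and 227, at ranks 304, 631, 488 and 203. The fifth was mtcu-2, a gene of mitochondrial tRNA modification, at 119.9 and rank 779. The phenylalanine synthetase subunit gene fars-3 falls outside the naming rule. It had a pooled signal of 79.1 at rank 1711, the closest of the synthetase subunit genes to the threshold without crossing it. Its signal was 52.9 at rank 1289 in replicate 1, where it was bound, and 31.1 at rank 2646 in replicate 2. The tRNA ligase genes glp-4 and Y105E8A.20 are also outside the rule and were bound in no list. Their pooled signals were 36.5 at rank 8179 and 17.7 at rank 29791. Cytosolic ribosomal protein genes (rpl- and rps-) were bound at 47 of 78 (60.3%), with a median percentile of 92.5. Mitochondrial ribosomal protein genes (mrpl- and mrps-) were bound at 8 of 70 (11.4%), with a median percentile of 66.7. The bound share of the synthetase genes (6.45%) was thus lower than in either ribosomal list and near that of all genes, while their share with a candidate (64.5%) lay between those of all genes (45.8%) and of mitochondrial ribosomal protein genes (75.7%).

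**Figure D4:**
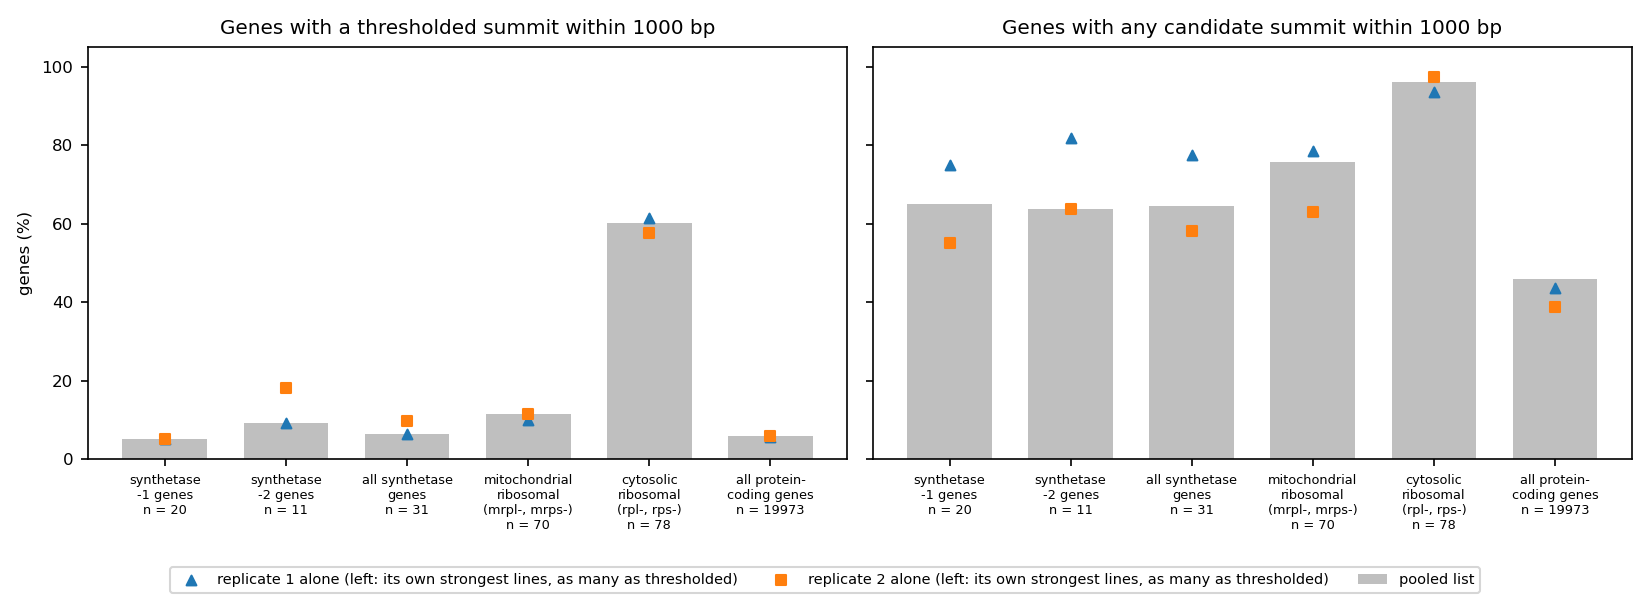
Percent of genes with a thresholded summit (left) or any candidate summit (right) within 1000 bp of the start, for the -1, -2 and all synthetase genes, the ribosomal protein gene lists and all protein-coding genes; bars are the pooled list and points each replicate alone. Bars for synthetase genes bound (6.45%) and all genes bound (5.83%) are of similar height, whereas 60.3% of cytosolic ribosomal protein genes were bound.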

How the data were processed

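Chromatin precipitated with an anti-GFP antibody from 2 samples of SPR-1-tagged L4 worms had been turned by the authors into lists of regions. The labels give the replicates separate biosamples. The signal value of each region was deposited by the authors on a scale that is unknown, and it ranked regions within a list only. By its name the thresholded list came from IDR, but the cut-off applied is unknown. Which programs did the alignment and the calling of regions is unknown too. Only ce11 lists were used. The ce10 lists and the control alignment were not used here.

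The strongest summit within 1000 bp of each start was found with Python 3.11.15, numpy 2.4.6 and pandas 2.3.3, using Ensembl release 115, after the procedure had been tested on simulated data. Correlations used scipy 1.17.1 and plots matplotlib 3.10.9. Lines on the mitochondrial genome (23 of the thresholded list) counted in ranks but in no gene. Depth is unknown, so no interval that needs it is given.

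Described in full were members bound in any list, the 5 unbound members of highest pooled signal and the counterparts of bound members. Further members near the window's edge and fars-3 were named after their values were seen. Members and lists were chosen with earlier results of these data known. Alternatives were other windows, starts, thresholds and each replicate alone.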

Additional observations from a re-analysis of the deposited data

How the results depend on the processing

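The call of ears-2 and aars-1 as bound was kept under every alternative run: windows of 500 and 2000 bp, starts of any transcript, the nearest gene only, overlap of the whole region, a stricter threshold (843 lines), a looser one (3372 lines) and each replicate alone. That the call was kept in each replicate alone is not separate support, since IDR selects on agreement between replicates. The count of bound synthetase genes was 2 or 3, and the share over all genes moved with the setting. The stricter threshold left 2 bound (6.45%, beside 3.15% of all genes). A 2000 bp window added fars-1 (3 bound, 9.68%, beside 8.52%) and the looser threshold added qars-1 (3 bound, 9.68%, beside 10.2%), and each gave 2 bound -1 genes in place of 1. Synthetase genes with a candidate numbered 16 at 500 bp (51.6%, beside 33.5% of all genes) and 28 at 2000 bp (90.3%, beside 59.7%), where 11 -2 genes had one in place of 7. Left to 1 replicate at a time, the bound count ranged from 2 to 3, that of -1 genes stayed at 1, and that of -2 genes ranged from 1 to 2, with iars-2 added without replicate 1. Genes with a candidate then ranged from 18 to 24, -1 genes from 11 to 15 and -2 genes from 7 to 9. The median percentile ranged from 33.0 without replicate 2 to 51.8 without replicate 1, beside 54.0 in the pooled list; the cause was not tested. Grouping by RefSeq compartment, added after the data were seen, gave 2 bound mitochondrial and 0 bound cytoplasmic genes under every alternative. These counts only repeat the calls of ears-2 and aars-1, which were known when the grouping was chosen. The genes that alternatives added, fars-1, qars-1 and iars-2, have no stated compartment, so the counts do not bear on a difference between compartments. No paired analysis was possible because there was 1 group. With 2 samples, no untagged strain and an unknown depth, a gene without a region is not shown to lack binding, and counts of 1 to 3 genes carry no weight beyond their own loci.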
